A study of Homo sapiens with 4 samples.

Results

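Secreted cytokines, chemokines and growth factors were followed as a group of 42 human genes. They and the other gene lists were chosen by name, with earlier results of these data known. Their shares beside those of all tested genes are therefore descriptive only. Chemokines draw cells along a gradient through G protein-coupled receptors. Several of the interleukins, and CSF2, act through cytokine receptors that signal by JAK kinases and STAT factors. Most growth factors of the list bind receptor tyrosine kinases. Many of these genes are transcribed on demand and their mRNAs are short-lived, and several are released only after a membrane-bound or inactive precursor has been cleaved. Lung carcinoma cells are known to make CXC chemokines and EGF family ligands that act on their own receptors.

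All 42 genes were among the 26348 genes of the table. A group mean of at least 0.5 FPKM (fragments scaled to the length of the gene and to the size of the library) was reached by 38 of them, and all 38 passed the filter of 0.5 FPKM in at least 3 libraries that left 13811 genes for testing. The remaining 4, IL6, IL1A, IL1B and PTN, stayed below 0.5 FPKM in every group mean and were not tested.

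The series measured mRNA in A549, an epithelial line from a lung carcinoma, and in 293T, a line from embryonic kidney that carries the SV40 large T antigen. A549 and 293T cells were kept under magnetic exposure for 2 h (exposed) or without it (control), so there were 4 groups, each of 3 libraries. Each line stands for 1 tissue source only, no genotype differed within a line, and the sources used here give no strength or kind of the field. No label says that replicate libraries are separate cultures, so the p-values given here reflect the spread from library to library alone, which may be technical.

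Depth was even, at 37171893 to 38884078 recovered counts per library. All 10 lung carcinoma epithelial markers were higher in control A549 than in control 293T, with a summed level of 7257 to 7800 FPKM in A549 and 87.5 to 97.1 FPKM in 293T. Of 9 tested markers of 293T, 7 were lower in A549 and 2 higher. Marker lists of leukocytes, fibroblasts and endothelium summed to at most 4.09, 3.77 and 0.136 FPKM in any library. Mitochondrially encoded transcripts took 7.69 to 7.96% of exposed A549 libraries and 8.35 to 9.28% of their controls, and 4.37 to 4.45% against 4.85 to 5.21% in 293T. Replicate 3 of the exposed group lay nearest to the controls on the first component in both lines (9.91 against 15.7 and 18.2 in A549, 6.51 against 16.1 and 14.7 in 293T).

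In unexposed cells most of the tested secreted factors were higher in A549. Of the 38 tested, 31 were higher in control A549 than in control 293T and 6 were lower, against a background in which 88.3% of all tested genes differed, 32.4% higher and 55.9% lower (limma on log2(FPKM + 1), Benjamini-Hochberg adjusted p below 0.05). The median log2 difference was 2.05 for the members and -0.25 for all tested genes. In 17 members every one of the 6 libraries of 293T was below 0.5 FPKM. They passed the filter through A549 alone, so their higher level there was largely set in advance. The 31 and the median of 2.05 rest in part on them. TSLP was the only tested member below 0.5 FPKM in all A549 libraries. The largest summed levels among the roles in control A549 were those of the chemokines, at 552 to 595 FPKM, a role that summed to 3.75 to 4.35 FPKM in control 293T.

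**Figure D1:**
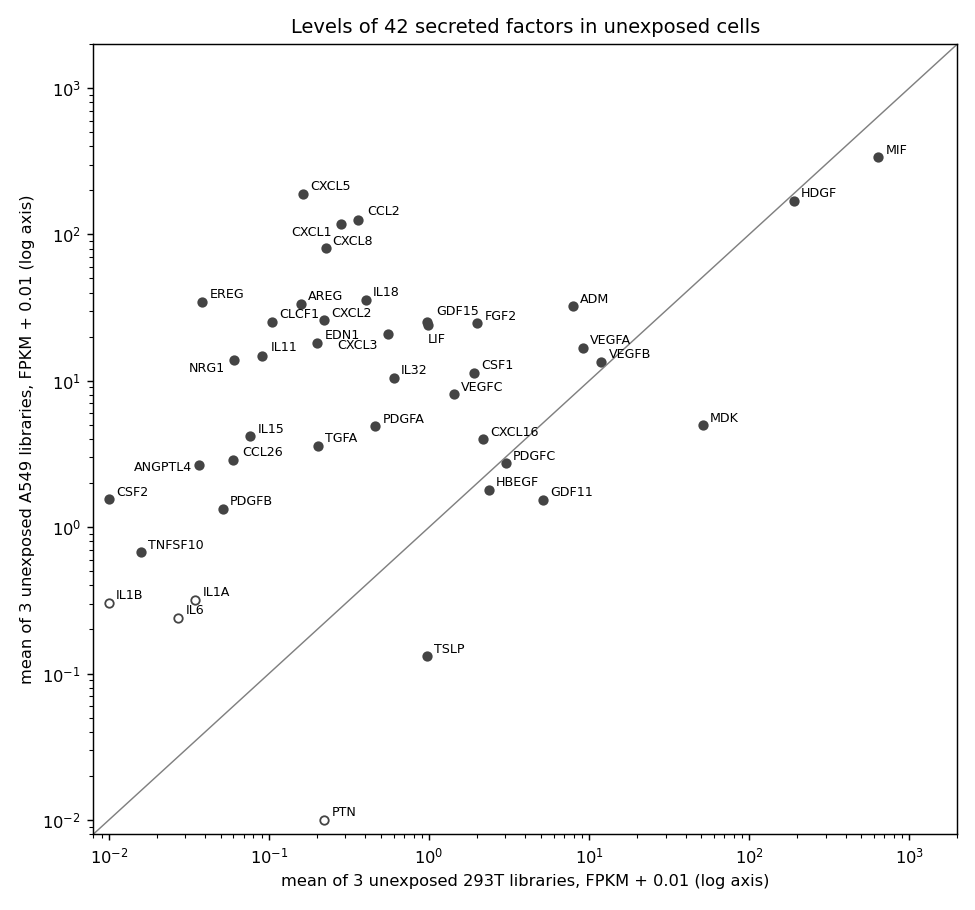
Mean FPKM of the 42 secreted factors in control 293T (horizontal) and control A549 (vertical) libraries, n = 3 each, with 0.01 FPKM added so that genes listed at 0 can be drawn on log axes. Filled points were tested and open points were not, and the grey line marks equal levels. Most points lie above the line, while MIF, HDGF, MDK, GDF11, HBEGF, PDGFC, TSLP and PTN lie below it.

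In A549, exposure raised 13 secreted factors and lowered 5. The 13 were EDN1, CCL26, NRG1, GDF15, LIF, CXCL8, ADM, AREG, IL11, FGF2, EREG, CLCF1 and VEGFA, and the 5 were CXCL2, TNFSF10, CSF2, VEGFB and HDGF. Across all tested genes 40.2% were called, 13.3% higher and 26.9% lower, so 18 of 38 called (47.4%) was near the background. The directions were 34.2% higher and 13.2% lower among the members. Their median log2 change was 0.07, beside -0.04 for all tested genes. In 15 members all exposed A549 libraries lay above all controls and in 6 all lay below, while 49.7% of all tested genes had no overlap (17.1% above, 32.6% below).

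In 293T, 9 of the same 38 genes were called, 4 higher (GDF15, VEGFA, HBEGF and GDF11) and 5 lower (CXCL16, CSF1, TSLP, VEGFB and FGF2). The background there was 38.0%, with 13.7% higher and 24.2% lower, beside 23.7% of the members. That share includes 17 members below 0.5 FPKM in all 6 libraries of 293T, whose changes the log2(FPKM + 1) scale keeps close to 0. All 9 calls came from the other 21, so the share does not show a weaker response of the members. In 6 members all exposed 293T libraries lay above all controls and in 5 all lay below, where 50.0% of all tested genes had no overlap (19.1% above, 30.8% below). The lines shared 4 called members, and 3 of these (GDF15, VEGFA and VEGFB) had the same direction in both. FGF2 was called in opposite directions.

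The split in A549 moved with the scaling. It was 16 higher and 3 lower with log2 values centred on the library median, 16 and 5 with quantile normalization, and 11 and 7 when FPKM was rescaled to a common sum without the mitochondrially encoded genes. The split of all tested genes moved as well, from 1837 higher and 3711 lower to 2695 and 2525, 2400 and 2786, and 1432 and 4474. In 293T the same settings gave 4 or 5 higher and 5 lower. Without replicate 3 of both exposed groups the counts were 13 and 5 in A549 and 4 and 5 in 293T, equal to those with it. Such bulk values cannot tell fewer cells of a kind from less RNA per cell. Where a member's span overlaps another annotated gene, reads of both may be mixed, since no source used here states strand-aware counting. Among the called members this holds for CXCL16, LIF, CLCF1, TNFSF10, GDF11, GDF15, EREG, NRG1, FGF2, HDGF and EDN1.

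**Figure D2:**
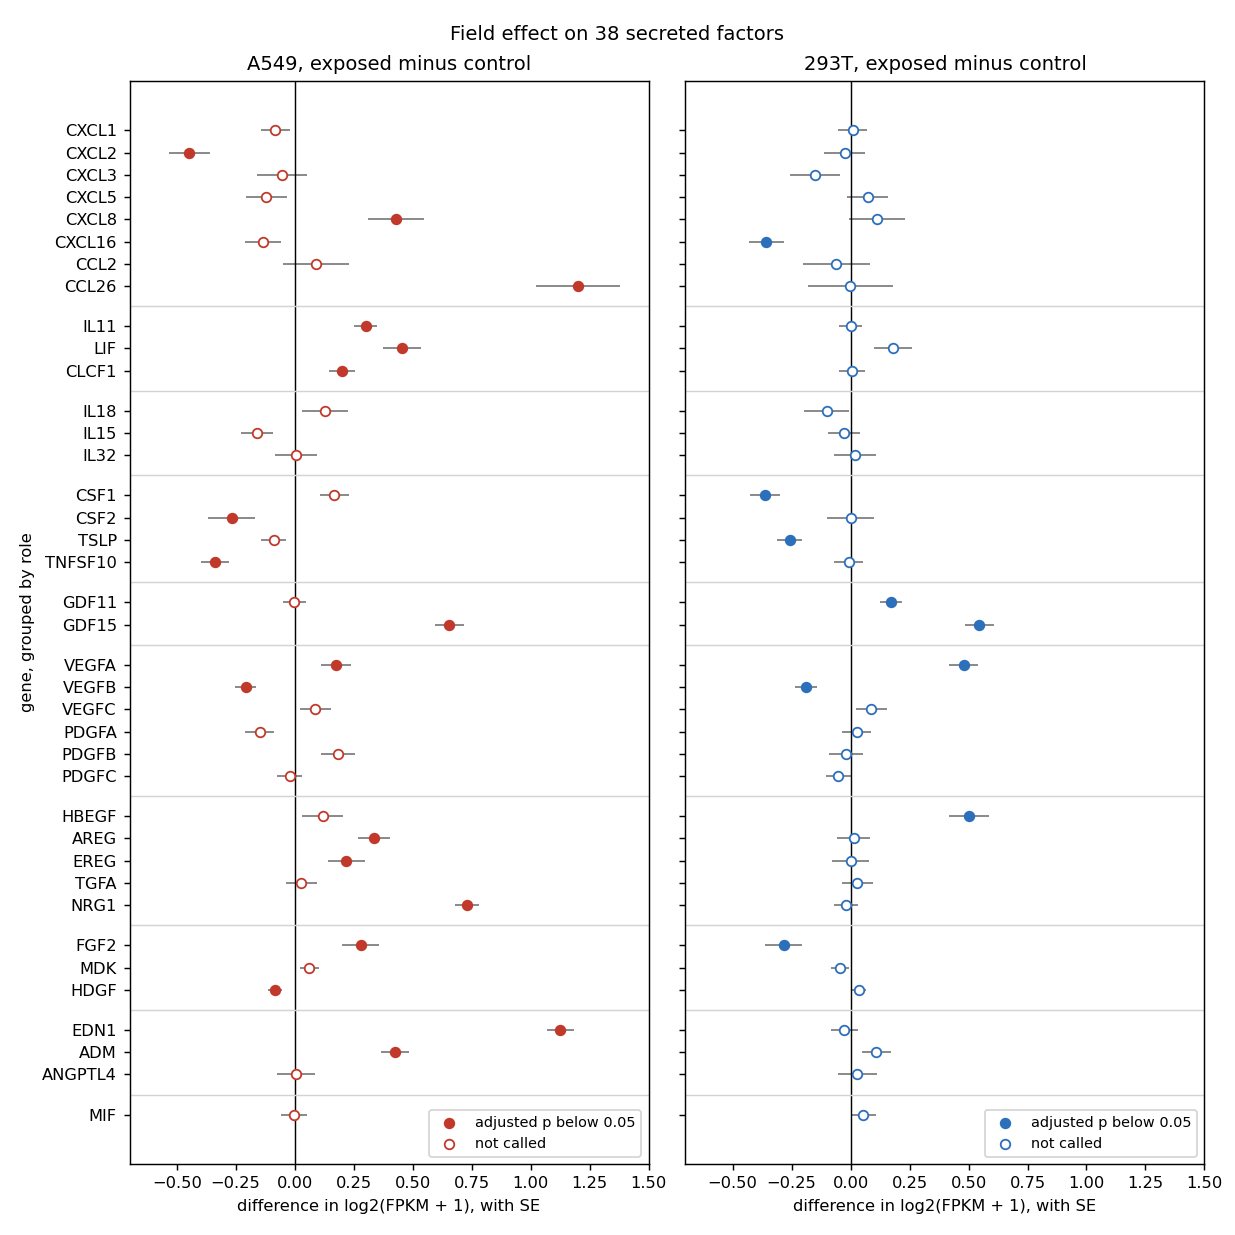
Exposed minus control difference on the log2(FPKM + 1) scale (horizontal, with SE) for the 38 tested secreted factors, grouped by role, in A549 (left) and 293T (right). Filled points passed an adjusted p of 0.05 in limma. EDN1 and CCL26 lie beyond 1 in A549 and at about 0 in 293T, and GDF15 is to the right of 0 in both lines.

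Of 8 tested chemokine genes 3 were called in A549 (37.5%), near the 40.2% of all tested genes. The 25.0% higher and 12.5% lower stood beside 13.3% and 26.9% of all tested genes. CCL26 (eotaxin-3), which attracts eosinophils through CCR3, and CXCL8 (interleukin-8), which attracts neutrophils, rose in A549, and CXCL2, another neutrophil attractant, fell. The other 5 tested chemokines were not called there. Stretches of 150 bases just upstream of 4 neutrophil-attracting CXC genes of chromosome 4 are shown because CXCL1, CXCL2 and CXCL3 are near copies whose calls differed. They are RefSeq sequences of GRCh38.p14 ending at the base before the annotated start, written along each gene's strand. Capitals mark exact matches to the NF-kB motif (an overlapping pair, 1 per strand) in the first 3 genes and to the AP-1 motif TGANTCA in CXCL8. The CXCL8 stretch also holds tggaatttcc, which differs from the NF-kB motif searched in its first base and is not marked.
CXCL1, chr4:73869243-73869392, plus strand: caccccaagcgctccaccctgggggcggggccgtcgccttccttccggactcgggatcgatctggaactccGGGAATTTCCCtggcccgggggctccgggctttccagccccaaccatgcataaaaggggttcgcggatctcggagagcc
CXCL2, chr4:74099196-74099345, minus strand: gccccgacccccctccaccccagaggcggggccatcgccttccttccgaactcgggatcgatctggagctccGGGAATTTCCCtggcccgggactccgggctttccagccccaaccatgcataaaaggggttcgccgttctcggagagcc
CXCL3, chr4:74038690-74038839, minus strand: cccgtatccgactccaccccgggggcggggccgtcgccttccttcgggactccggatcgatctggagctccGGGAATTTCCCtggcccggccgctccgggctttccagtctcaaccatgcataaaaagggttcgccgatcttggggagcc
CXCL8, chr4:73740419-73740568, plus strand: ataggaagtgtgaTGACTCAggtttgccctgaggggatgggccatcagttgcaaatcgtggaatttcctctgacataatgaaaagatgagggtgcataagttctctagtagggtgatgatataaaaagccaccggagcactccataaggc

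The stretches of CXCL1 and CXCL2 were identical in 134 of 151 aligned columns (88.7%), those of CXCL1 and CXCL3 in 133 (88.1%) and those of CXCL2 and CXCL3 in 130 (86.1%). CXCL1 and CXCL8 shared 73 of 175 columns (41.7%). Reads of the 3 near copies may have been exchanged in counting.

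CCL26 was at 7.32, 11.9 and 5.51 FPKM in the exposed A549 libraries and at 2.79, 3.21 and 2.61 FPKM in the controls. All exposed libraries were above all controls, and the exposed spread was wide (8.24 ± 3.29 against 2.87 ± 0.307 FPKM, SD, n = 3 each). The ratio of means was 2.87 and the log2 change 1.20 (SE 0.18), with a Benjamini-Hochberg adjusted p of 2.74e-04 in limma. This SE is pooled over both lines and includes 293T libraries near 0, so it may understate the spread in A549. The adjusted p was 4.08e-05 to 0.0112 over all settings tried. In 293T the gene was barely present, at 0, 0.150 and 0 FPKM exposed and 0.0378, 0.112 and 0 FPKM control, which corresponds to 0 to 4 counts a library.

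CXCL8 stood at 90.9, 141 and 99.4 FPKM in exposed A549 and at 81.1, 79.7 and 80.1 FPKM in the controls. No values overlapped, and exposed replicate 2 was well above the others. The log2 change was 0.43 (SE 0.12, adjusted p = 0.0126 by limma), and it was no longer called with a pseudocount of 0.1 or with each line fitted alone (adjusted p from 0.00323 to 0.0728 over all settings tried). In 293T CXCL8 was at 0.314, 0.328 and 0.288 FPKM exposed and 0.203, 0.138 and 0.305 FPKM control, with overlapping groups.

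CXCL2 was lower, at 16.2, 20.2 and 20.2 FPKM in exposed A549 against 26.1, 27.1 and 24.7 FPKM. The exposed libraries were all below the controls, with a log2 change of -0.45 (SE 0.09, adjusted p = 0.00158 by limma). This call ended when the pseudocount was 0.1 (adjusted p over all settings from 3.25e-04 to 0.134). In 293T it was at 0.241, 0.0931 and 0.231 FPKM exposed and 0.164, 0.139 and 0.328 FPKM control, which overlapped.

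The neighbours of CXCL2 gave other values. CXCL1, a ligand of the same receptor CXCR2, was at 102 to 118 FPKM in exposed and 116 to 122 FPKM in control A549 (log2 change -0.08, SE 0.06, adjusted p = 0.328). CXCL3 was at 18.5 to 23.0 against 20.1 to 21.7 FPKM (log2 change -0.05, SE 0.11, adjusted p = 0.754). Both overlapped between groups. Whether CXCL2 differed from CXCL1 and CXCL3 in its response was not tested.

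CXCL5, also a CXCR2 ligand, was the most abundant chemokine, at 171, 170 and 180 FPKM in exposed A549 and at 215, 179 and 175 FPKM in the controls. Its groups overlapped, and the log2 change of -0.12 was not called (adjusted p = 0.302). In 293T the libraries held 0.110, 0.160 and 0.381 FPKM exposed and 0.140, 0.106 and 0.215 FPKM control. CCL2, a monocyte attractant, was at 121 to 141 FPKM in exposed and 123 to 129 FPKM in control A549 and at most 0.670 FPKM in 293T, and was not called in either line.

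CXCL16, a membrane-bound chemokine whose receptor is CXCR6, fell in 293T. It was at 1.29, 1.31 and 1.82 FPKM exposed and 2.20, 2.31 and 1.95 FPKM control. Exposed replicate 3 came close to the lowest control without reaching it (log2 change -0.36, SE 0.07, adjusted p = 0.00306 by limma). A549 had 3.42, 3.69 and 3.49 FPKM exposed and 3.94, 3.84 and 4.16 FPKM control, lower without overlap but not called (log2 change -0.13, adjusted p = 0.178). Its span overlaps MED11 and ZMYND15, so its values are uncertain.

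**Figure D3:**
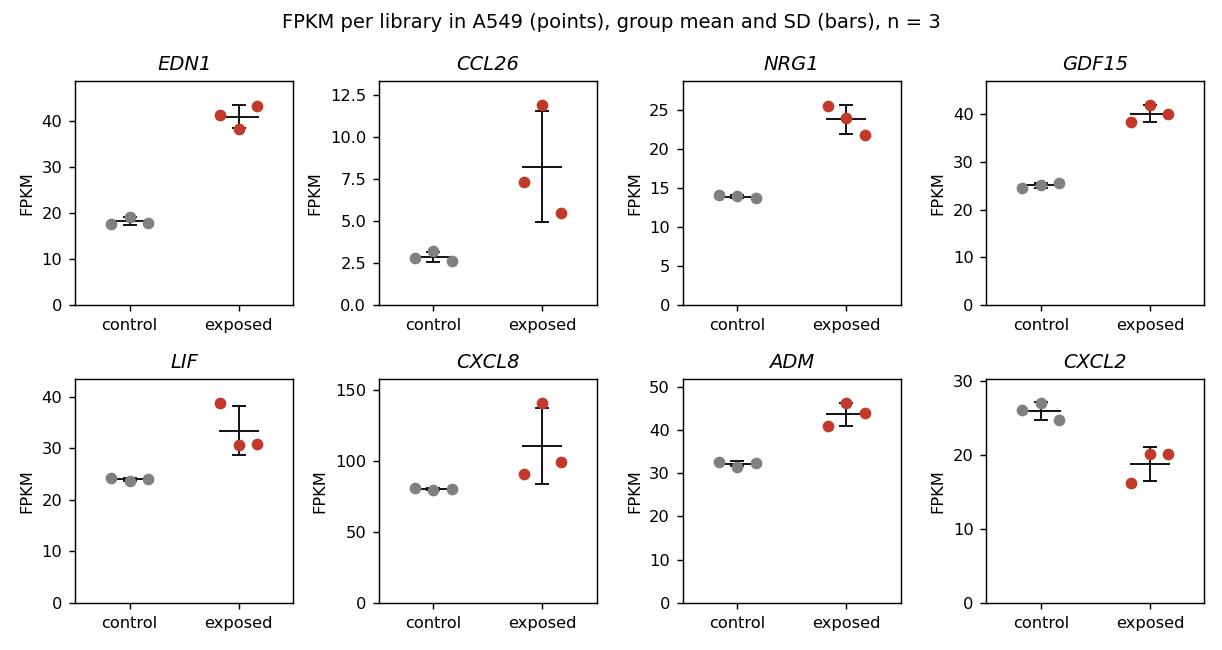
FPKM in each of the 3 control (grey) and 3 exposed (red) A549 libraries for 8 secreted factors, on linear axes from 0, with lines at the mean and bars of 1 SD. The groups do not overlap in any panel. EDN1 and NRG1 are tight within groups, and the exposed CCL26 and CXCL8 libraries each have replicate 2 highest.

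Cytokines of the interleukin-6 family, which signal through gp130 (IL6ST) with partner receptors, all rose in A549 where they were tested, 3 of 3, and none was called in 293T. Of all tested genes 13.3% rose in A549 and 38.0% were called in 293T. IL11 and CLCF1 were below 0.5 FPKM in all 293T libraries, where the log2(FPKM + 1) scale keeps their change close to 0. The lack of calls in 293T therefore does not show a difference between the lines. LIF, which acts through LIFR and gp130, was at 38.9, 30.6 and 30.9 FPKM in exposed A549 and 24.2, 23.7 and 24.1 FPKM in the controls. All exposed values were above all controls, and replicate 1 was the highest (33.4 ± 4.69 against 24.0 ± 0.247 FPKM, log2 change 0.45, SE 0.08, adjusted p = 8.46e-04 by limma). In 293T LIF was at 1.35, 1.09 and 1.24 FPKM exposed and 0.978, 0.851 and 1.08 FPKM control. These did not overlap either, but the log2 change of 0.18 was not called (adjusted p = 0.102, and 0.0220 to 0.304 over the settings tried). Its antisense genes share the locus.

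IL11, a fibrosis-linked cytokine that binds IL11RA and gp130, was tight within groups. It was at 18.0, 19.5 and 17.4 FPKM in exposed and 14.9, 14.7 and 14.4 FPKM in control A549 (log2 change 0.30, SE 0.05, adjusted p = 4.60e-04). The 293T values were 0.124, 0.0655 and 0.0542 FPKM exposed and 0.0990, 0.0870 and 0.0550 FPKM control. CLCF1, a ligand of the CNTF receptor, was at 27.6, 32.1 and 28.3 against 25.7, 25.4 and 24.8 FPKM in A549 (log2 change 0.20, SE 0.05, adjusted p = 0.0115). The exposed libraries were all higher, by a small margin for replicate 1. Its 293T values were 0.103, 0.113 and 0.0842 FPKM exposed and 0.114, 0.127 and 0.0427 FPKM control. The A549 calls of IL11 and CLCF1 ended when the pseudocount was 0.1 (adjusted p up to 0.0791 and 0.281 over the settings tried).

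IL6 itself was scarce. It was at 0.212, 0.579 and 0.373 FPKM in exposed and 0.168, 0.312 and 0.210 FPKM in control A549, with overlap, and at 0.00879, 0.0170 and 0 FPKM exposed and 0.0171, 0 and 0.0342 FPKM control in 293T. It was not tested. The 150 bases upstream of IL11 are shown beside those of CXCL8 because both genes rose in A549 and both hold an AP-1 match, in capitals. Of 30 members searched, 3 held a match (10%), beside 6.60% of all promoters. The third was IL1A, which was not tested and was lower in all exposed A549 libraries than in the controls. A role of AP-1 was not tested.
IL11, chr19:55370464-55370613, minus strand: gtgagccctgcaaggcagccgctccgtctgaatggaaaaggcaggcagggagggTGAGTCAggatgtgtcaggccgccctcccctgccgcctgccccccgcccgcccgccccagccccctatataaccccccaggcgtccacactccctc

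None of the 3 tested members of the interleukin-1 family and other interleukins was called in either line. Of all tested genes 40.2% were called in A549 and 38.0% in 293T. IL18, an interferon-gamma inducing cytokine made as an inactive precursor, was the most abundant, at 38.0, 38.6 and 40.8 FPKM in exposed A549 and 35.3, 34.1 and 37.7 FPKM in controls. The groups came close without overlapping and the log2 change of 0.13 was not called (adjusted p = 0.326). Its 293T libraries held 0.140, 0.517 and 0.245 FPKM exposed and 0.498, 0.448 and 0.226 FPKM control.

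IL15, a growth factor of T and NK cells, was at 3.30 to 4.05 against 3.72 to 4.50 FPKM in A549 (log2 change -0.16, adjusted p = 0.0821). IL32 was at 9.91 to 11.1 against 9.42 to 11.3 FPKM. Neither separated the groups. IL1A, an alarmin, was at 0.222, 0.227 and 0.136 FPKM in exposed and 0.306, 0.245 and 0.380 FPKM in control A549. In 293T the values were 0, 0 and 0.0245 FPKM exposed and 0.0373, 0.0369 and 0 FPKM control. IL1B was at 0.297, 0.270 and 0.231 FPKM in exposed and 0.278, 0.328 and 0.279 FPKM in control A549 and was listed at 0 in all 6 libraries of 293T. Both were untested.

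Among colony-stimulating factors, TSLP and the death ligand TRAIL, 2 of 4 fell in A549 (TNFSF10 and CSF2) and 2 of 4 in 293T (CSF1 and TSLP), and none rose. Falls also outnumbered rises among all tested genes, at 26.9% in A549 and 24.2% in 293T. TNFSF10, which encodes TRAIL, was at 0.200, 0.310 and 0.451 FPKM in exposed and 0.689, 0.587 and 0.716 FPKM in control A549. All exposed values were lower, with exposed replicate 3 nearest to the controls (0.320 ± 0.126 against 0.664 ± 0.0679 FPKM, log2 change -0.34, SE 0.06, adjusted p = 9.25e-04 by limma). These were 23 to 52 counts against 68 to 83, so the precision is limited. In 293T it was listed at 0 in all exposed libraries and at 0.00875, 0 and 0.00875 FPKM in controls.

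CSF2 (GM-CSF), a growth factor of granulocytes and macrophages, was at 1.09, 0.806 and 1.45 FPKM in exposed and 1.79, 1.60 and 1.21 FPKM in control A549. The groups overlapped, and the call was marginal (log2 change -0.27, SE 0.10, adjusted p = 0.0482). Leaving out 1 library in turn ended the call in 10 of 12 fits (adjusted p 0.00601 to 0.204). In 293T CSF2 was listed at 0 in every library.

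CSF1 (M-CSF), which acts on macrophages through CSF1R, moved in 293T. It was at 1.09, 1.25 and 1.42 FPKM exposed and 1.99, 1.97 and 1.73 FPKM control there, with no overlap (log2 change -0.36, SE 0.06, adjusted p = 9.86e-04 by limma). In A549 it was at 12.2, 13.8 and 12.6 FPKM exposed and 11.1, 11.0 and 11.8 FPKM control. The exposed A549 libraries were all higher, and the log2 change of 0.17 (SE 0.06) had an adjusted p of 0.05004, just outside the threshold, with a range of 0.0144 to 0.190 over the settings tried.

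TSLP, an epithelial cytokine that acts on dendritic cells and type 2 lymphocytes, was the scarcest tested gene of this role in A549. It fell in 293T, where it was at 0.681, 0.629 and 0.596 FPKM exposed and 0.964, 0.804 and 1.11 FPKM control, without overlap (log2 change -0.26, SE 0.05, adjusted p = 0.00283). In A549 it was at 0.0469, 0.0479 and 0.0656 FPKM exposed and 0.121, 0.140 and 0.102 FPKM control. Those groups did not overlap either, at 5 to 7 against 11 to 15 counts, and the log2(FPKM + 1) scale gave -0.09 (adjusted p = 0.209). A test on the recovered counts called it (adjusted p from 0.00641 to 0.647 over the settings tried).

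GDF15 and GDF11 belong to the TGF-beta superfamily. GDF15, a stress-induced cytokine whose receptor is GFRAL, rose in both lines. In exposed A549 it was at 38.5, 41.9 and 40.0 FPKM and in controls at 24.6, 25.1 and 25.6 FPKM (log2 change 0.66, SE 0.06, adjusted p = 1.08e-05). In 293T it was at 2.03, 1.90 and 1.65 FPKM exposed and 1.13, 0.888 and 0.867 FPKM control. The ratio of means was 1.60 in A549 and 1.94 in 293T (log2 change in 293T 0.55, SE 0.06, adjusted p = 7.86e-05 by limma), with no overlap in either line. The log2 changes differed between the lines by 0.11 (SE 0.09, adjusted p = 0.456), while the level in control A549 was 26.1 times that in control 293T.

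GDF11, a ligand of activin receptors that patterns the embryo, rose slightly in 293T, from 5.13, 5.32 and 4.90 FPKM in controls to 5.99, 5.96 and 5.70 FPKM. The groups did not overlap (log2 change 0.17, SE 0.05, adjusted p = 0.0145), and the call was lost without control replicate 3 of 293T (adjusted p over all settings from 0.00433 to 0.0608). In A549 it was at 1.66, 1.49 and 1.42 FPKM exposed and 1.48, 1.58 and 1.52 FPKM control, with overlap. Its span overlaps SARNP.

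**Figure D4:**
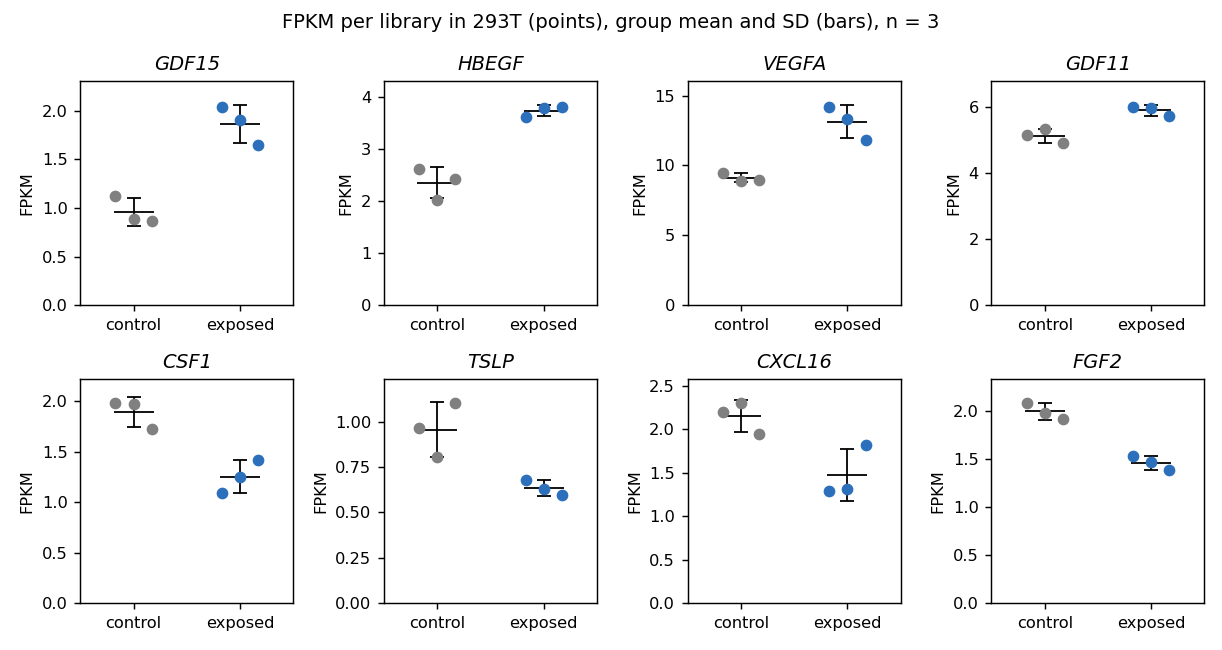
FPKM in each of the 3 control (grey) and 3 exposed (blue) 293T libraries for 8 of the 9 called secreted factors, on linear axes from 0, with lines at the mean and bars of 1 SD. GDF15, HBEGF, VEGFA and GDF11 are higher after exposure and CSF1, TSLP, CXCL16 and FGF2 lower, without overlap in any panel.

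In the VEGF and PDGF family, VEGFA and VEGFB moved in opposite directions in both lines. VEGFA, the main angiogenic ligand of KDR, was the most abundant gene of the family in both A549 groups and in exposed 293T. In control 293T VEGFB was higher. VEGFA was at 14.2, 13.4 and 11.8 FPKM in exposed and 9.48, 8.90 and 8.95 FPKM in control 293T. The groups were well apart (ratio of means 1.44, log2 change 0.48, SE 0.06, adjusted p = 1.82e-04 by limma). In A549 VEGFA was at 20.4, 19.5 and 17.6 FPKM exposed and 16.8, 16.9 and 16.8 FPKM control. These did not overlap either, but the change was small (log2 change 0.17, SE 0.06, adjusted p = 0.0396) and the call ended in 8 of 12 fits with 1 library removed (adjusted p 0.0120 to 0.158).

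VEGFB, a ligand of FLT1, fell by a similar size in both lines. It was at 11.8, 11.0 and 11.9 FPKM in exposed and 13.1, 13.4 and 13.9 FPKM in control A549, and at 10.8, 9.79 and 10.4 FPKM in exposed and 12.4, 11.8 and 11.6 FPKM in control 293T. No values overlapped. The log2 change was -0.21 in A549 (adjusted p = 0.00329) and -0.19 in 293T (adjusted p = 0.00691), and their difference of -0.02 (SE 0.06) was not called.

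The remaining 4 genes of the family were not called in either line. The family thus had 33.3% called in each line, beside 40.2% of all tested genes in A549 and 38.0% in 293T. VEGFC, the lymphatic ligand of FLT4, was at 8.53 to 8.80 FPKM in exposed and 7.97 to 8.23 FPKM in control A549, separate but with a log2 change of only 0.09 (adjusted p = 0.324). PDGFA was at 4.24 to 4.33 against 4.25 to 5.24 FPKM and PDGFC at 2.61 to 2.76 against 2.53 to 2.92 FPKM in A549. PDGFB, the scarcest of the family, was at 1.70, 1.95 and 1.32 FPKM in exposed and 1.28, 1.31 and 1.39 FPKM in control A549. It overlapped through exposed replicate 3 (log2 change 0.18, adjusted p = 0.0613, and 0.00214 to 0.276 over the settings tried). In 293T PDGFB was at 0.0427, 0.0137 and 0.0272 FPKM exposed and 0.0207, 0.0137 and 0.0898 FPKM control.

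EGF family ligands are made as membrane-bound precursors and bind EGFR or, for neuregulins, ERBB3 and ERBB4. In A549, 3 of 5 rose and none fell, and in 293T 1 of 5 rose (60% and 20%, beside 13.3% and 13.7% of all tested genes). The 20% is not a response rate of the family, since AREG, EREG, TGFA and NRG1 were below 0.5 FPKM in all 293T libraries. NRG1, the neuregulin, was at 25.5, 24.0 and 21.8 FPKM in exposed A549 and at 14.1, 14.0 and 13.7 FPKM in the controls. The separation was wide (ratio of means 1.71, log2 change 0.73, SE 0.05, adjusted p = 1.76e-06 by limma). The levels in 293T were 0.0535, 0.0252 and 0.0329 FPKM exposed and 0.0400, 0.0567 and 0.0533 FPKM control, with overlap.

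AREG (amphiregulin), an EGFR ligand, was at 45.3, 41.1 and 42.1 FPKM in exposed and 33.0, 33.8 and 34.4 FPKM in control A549. All exposed libraries were higher (log2 change 0.34, SE 0.07, adjusted p = 0.00214), and the call was lost with a pseudocount of 0.1 and after rescaling to TPM (adjusted p over all settings from 2.64e-04 to 0.340). In 293T it was at 0.109, 0.126 and 0.230 FPKM exposed and 0.127, 0.272 and 0.0424 FPKM control. The stretch upstream of AREG is shown because it holds a match to the cAMP response element TGACGTCA, in capitals, which among the members was also found in IL32.
AREG, chr4:74444986-74445135, plus strand: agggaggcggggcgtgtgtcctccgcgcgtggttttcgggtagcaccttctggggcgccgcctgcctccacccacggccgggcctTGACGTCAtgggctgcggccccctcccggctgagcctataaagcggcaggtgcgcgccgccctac

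EREG (epiregulin), the neighbour of AREG, was at 39.3, 41.5 and 39.6 FPKM in exposed and 40.7, 31.5 and 31.5 FPKM in control A549. Control replicate 1 lay among the exposed libraries, so the groups overlapped. The log2 change of 0.22 (SE 0.08) was marginal (adjusted p = 0.0426) and ended in 11 of 12 fits with 1 library removed. The exception was the fit without control replicate 1, in which the adjusted p was 2.92e-04, the lowest of a range that reached 0.172. In 293T EREG was at 0.0233, 0.0225 and 0.0391 FPKM exposed and 0.00567, 0.0168 and 0.0623 FPKM control.

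HBEGF, a heparin-binding EGFR ligand, rose in 293T. There it was at 3.62, 3.80 and 3.81 FPKM exposed and 2.62, 2.03 and 2.43 FPKM control, without overlap (ratio of means 1.59, log2 change 0.50, SE 0.09, adjusted p = 8.79e-04 by limma). In A549 it was the scarcest gene of the role, at 1.75, 2.49 and 1.89 FPKM exposed and 1.70, 1.92 and 1.75 FPKM control. Those groups overlapped (log2 change 0.12, adjusted p = 0.306). The difference between the lines, -0.38 (SE 0.12), had an adjusted p of 0.0577. TGFA was at 3.64 to 3.69 against 3.09 to 3.95 FPKM in A549 and was not called in either line.

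Of the heparin-binding growth factors, FGF2 was called in both lines with opposite signs. FGF2, a mitogen that binds FGF receptors, was at 29.8, 30.9 and 29.2 FPKM in exposed and 28.9, 21.9 and 23.1 FPKM in control A549. Control replicate 1 came close to the exposed libraries, with 7615 counts against 5762 and 6069 in the other controls and 7627 to 7897 in the exposed libraries. The log2 change of 0.28 (SE 0.08, adjusted p = 0.0127) was lost without control replicate 2 or 3 of A549 and with each line fitted alone, and was strongest without replicate 1 (adjusted p over all settings from 1.56e-04 to 0.0673). In 293T FGF2 was at 1.53, 1.47 and 1.38 FPKM exposed and 2.08, 1.98 and 1.92 FPKM control. All exposed 293T libraries were lower (log2 change -0.28, SE 0.08, adjusted p = 0.0133), and a test on recovered counts gave 0.0548, the highest over the settings tried, which began at 5.94e-04. Its span overlaps NUDT6.

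HDGF, a nuclear protein that can be released, was the most abundant of this role. It was at 162, 154 and 165 FPKM in exposed and 165, 173 and 172 FPKM in control A549. The groups only just separated (log2 change -0.08, SE 0.03, adjusted p = 0.0373), and removing 1 library ended the call in 5 of 12 fits (adjusted p 0.0204 to 0.159). Its 293T values were 195 FPKM in each exposed library and 192, 191 and 188 FPKM in the controls, higher without overlap but not called (log2 change 0.04, adjusted p = 0.351).

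MDK (midkine) was 10.3 times higher in control 293T than in control A549, at 49.3 to 53.0 against 4.87 to 5.10 FPKM. Exposure left it uncalled in both lines, with log2 changes of 0.06 and -0.04. PTN (pleiotrophin), its homologue, was listed at 0 in all A549 libraries and was at 0.334, 0.155 and 0.307 FPKM in exposed and 0.195, 0.167 and 0.273 FPKM in control 293T.

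The vasoactive peptides EDN1 and ADM both rose in A549. EDN1 encodes endothelin-1, a vasoconstrictor and mitogen that acts through EDNRA and EDNRB. Among the 38 tested members its adjusted p in A549 was the smallest.

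EDN1 was at 41.3, 38.3 and 43.3 FPKM in exposed A549 and at 17.6, 19.2 and 17.9 FPKM in the controls. The exposed values were all far above the controls and tight (41.0 ± 2.52 against 18.2 ± 0.879 FPKM, ratio of means 2.25, log2 change 1.13, SE 0.06, adjusted p = 4.01e-07 by limma). In 293T it was at 0.162, 0.137 and 0.204 FPKM exposed and 0.197, 0.127 and 0.247 FPKM control. There the groups overlapped at 13 to 25 counts a library. A long non-coding RNA overlaps the annotated span of EDN1.

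ADM (adrenomedullin), a vasodilator peptide that binds CALCRL with RAMP proteins, was at 40.9, 46.2 and 43.9 FPKM in exposed and 32.7, 31.5 and 32.4 FPKM in control A549. The groups were apart (ratio of means 1.35, log2 change 0.42, SE 0.06, adjusted p = 1.83e-04). Levels in 293T were 8.55, 8.79 and 8.34 FPKM exposed and 8.46, 8.18 and 6.99 FPKM control, with overlap (log2 change 0.11, adjusted p = 0.171). ANGPTL4, an inhibitor of lipoprotein lipase and the scarcest of the role, was at 2.82, 2.56 and 2.51 FPKM in exposed and 2.21, 2.52 and 3.16 FPKM in control A549. Its 293T libraries were at 0.0138, 0.119 and 0.0132 FPKM exposed and 0.0134, 0.0397 and 0.0267 FPKM control, and neither line gave a call.

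MIF, a cytokine that binds CD74 and is released without a signal peptide, was the most abundant member in each of the 4 groups. It was at 338, 354 and 315 FPKM in exposed and 352, 318 and 338 FPKM in control A549, and at 718, 636 and 644 FPKM in exposed and 662, 628 and 633 FPKM in control 293T. The groups overlapped in both lines, with log2 changes near 0 in A549 (adjusted p = 0.986) and of 0.05 in 293T (adjusted p = 0.471).

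The field effect itself was compared between the lines. Of the 38 members, 8 had a more positive change in A549 (CCL26, EDN1, NRG1, FGF2, CSF1, AREG, ADM and IL11) and 3 a more negative one (CXCL2, TNFSF10 and VEGFA). The background was 12.5% of all tested genes, 5.51% more positive and 7.03% more negative, beside 28.9% of the members. EDN1 differed by 1.15 (SE 0.08, adjusted p = 1.20e-05), CCL26 by 1.20 (SE 0.25, adjusted p = 0.0101) and NRG1 by 0.75 (SE 0.07, adjusted p = 1.61e-04, all by limma). CSF1 differed by 0.53 (SE 0.09, adjusted p = 0.00304) and FGF2 by 0.56 (SE 0.11, adjusted p = 0.00695), and both were measurable in both lines.

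Of the 11 members with a called difference, 7 were below 0.5 FPKM in all 6 libraries of 293T (CCL26, EDN1, NRG1, AREG, IL11, CXCL2 and TNFSF10). Of the 17 members at that level, 11 were called in A549, where 40.2% of all tested genes were called. The log2(FPKM + 1) scale keeps the change of these 17 in 293T close to 0. On the scale of recovered counts (limma-voom) 2 members differed in the positive direction, CSF1 and FGF2, and 1 in the negative, VEGFA. Of all 13811 tested genes 532 then differed in the positive direction and 695 in the negative. Counted in both directions together, the members' share was then no longer above that of all tested genes. In the positive direction alone it was still above, through only 2 members. EDN1, NRG1 and CCL26 then had adjusted p of 0.0737, 0.111 and 0.471, the highest over the settings tried (from 6.77e-06, 3.94e-05 and 0.00126). Their differences were 1.11 to 1.31, 0.70 to 1.25 and 0.93 to 1.85 over those settings. The differences of AREG, VEGFA, CXCL2, ADM and TNFSF10 ended in 10, 10, 8, 8 and 7 of 12 fits with 1 library removed. Of the 21 members with at least 0.5 FPKM in some 293T library, 7 were called in A549 and 9 in 293T. Of all tested genes 40.2% and 38.0% were called. The 17 passed the filter through A549 alone, so the 17 and the 21 cannot be compared.

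On chromosome 4 the members included a run of 7 genes within 714.4 kb (chr4:73740569-74455005, GRCh38.p14), in the order CXCL8, CXCL1, CXCL5, CXCL3, CXCL2, EREG and AREG. In A549 the genes at the ends of the run, CXCL8, EREG and AREG, were called higher, CXCL2 was called lower, and CXCL1, CXCL5 and CXCL3 were not called. None of the 7 was called in 293T, where all but CXCL3 were below 0.5 FPKM in every library.

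**Figure D5:**
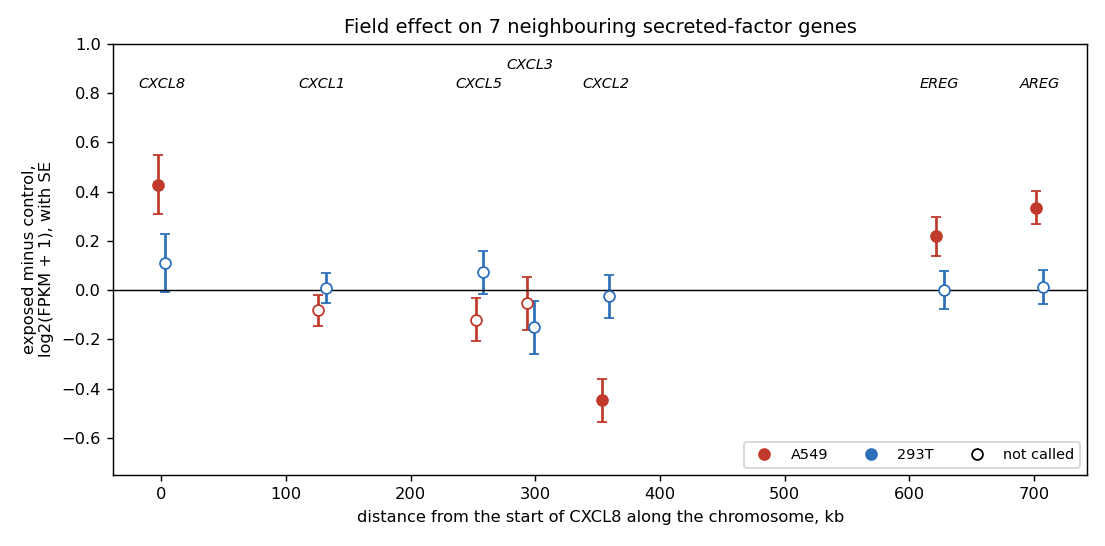
Exposed minus control difference on the log2(FPKM + 1) scale (vertical, with SE) against the distance from the start of CXCL8 in kb (horizontal) for 7 neighbouring genes, in A549 (red) and 293T (blue). Filled points passed an adjusted p of 0.05. The called rises in A549 lie at the left end and at the right end, and the called fall of CXCL2 lies between them.

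Upstream sequence was searched over 250 bases before the start (the first listed start where RefSeq gives several, as for EDN1) on both strands, for 30 of the 42 members that had a RefSeq entry and for all 27305 promoters of that table. An NF-kB motif was in 9 of the 30 (30%) and in 9.57% of all promoters. The 9 were CXCL1, CXCL2, CXCL3, CXCL5, IL6, IL32, TGFA, VEGFC and GDF15, of which GDF15 rose and CXCL2 fell in A549 and the others were not called or not tested. Only exact matches were counted, so the near match of CXCL8 is not among them. AP-1 matches were in 3 of 30 (10%) against 6.60%, in CXCL8, IL11 and IL1A. The cAMP response element was in 2 (6.67%) against 1.77% and the heat shock element GAANNTTC in 3 (10%, IL1B, TSLP and IL32) against 5.85%. The core ACGTG was in 3 (10%, EDN1, IL1A and ANGPTL4) against 18.7%. Of these EDN1 rose in A549, ANGPTL4 was not called and IL1A was not tested. The amino acid response element TGATGNAAT was in 0 against 0.916%. CXCL1, CXCL2 and CXCL3 are near copies, so their matches are not independent.

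Of 58 listed receptor genes 37 were tested, of which 3 rose and 15 fell in A549 and 5 rose and 8 fell in 293T, with median log2 changes of -0.06 and -0.03. In A549 that was 8.11% higher and 40.5% lower, beside 13.3% and 26.9% of all tested genes. In 293T it was 13.5% and 21.6%, near the 13.7% and 24.2% of all tested genes. ACKR3, an atypical chemokine receptor that scavenges CXCL12, went from 2.23 ± 0.103 to 1.23 ± 0.105 FPKM in A549 (log2 change -0.54, adjusted p = 8.49e-06). IL7R, which pairs with the TSLP receptor chain, went from 0.610 ± 0.135 to 1.61 ± 0.187 FPKM (log2 change 0.70, adjusted p = 1.03e-05). ERBB2, the co-receptor of the EGF family, fell in both lines, from 9.97 ± 0.191 to 8.02 ± 0.305 FPKM in A549 and from 9.48 ± 0.111 to 6.87 ± 0.495 FPKM in 293T.

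Genes whose products cleave or release the ligands showed no rise that passed the test. Of 19 tested processing genes 8 fell in A549 and 6 in 293T, with medians of -0.09 and -0.07 (42.1% and 31.6% lower, beside 26.9% and 24.2% of all tested genes). FURIN, a proprotein convertase, fell by 0.22 on the log2 scale in both lines (adjusted p = 1.55e-04 in A549 and 2.31e-04 in 293T). GSDMD, the pore protein that releases interleukin-1 family cytokines, went from 8.66 ± 0.484 to 6.98 ± 0.237 FPKM in A549 (adjusted p = 5.61e-04). RHBDF1, which with RHBDF2 carries the EGF-ligand sheddase ADAM17 to the cell surface, fell in A549 (log2 change -0.34) and in 293T (-0.19). ADAM17 itself was at 12.3 ± 0.241 against 12.4 ± 0.321 FPKM in A549 and was not called.

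Among 25 tested factors of cytokine mRNA decay, 9 rose and 6 fell in A549, and 9 rose and 4 fell in 293T (medians 0.03 and 0.15). That was 36% higher and 24% lower in A549, beside 13.3% and 26.9% of all tested genes, and 36% and 16% in 293T, beside 13.7% and 24.2%. ZFP36L2, which binds AU-rich elements, fell in A549 (13.3 ± 0.419 to 9.61 ± 0.232 FPKM, log2 change -0.43, adjusted p = 6.47e-06) and rose in 293T (14.3 ± 0.347 to 17.0 ± 0.482 FPKM, log2 change 0.24, adjusted p = 5.68e-04). RC3H1 and RC3H2, the roquin proteins that act on stem-loops of such mRNAs, rose in both lines, by 0.21 and 0.31 in A549 and by 0.55 and 0.19 in 293T. BTG1, a deadenylation cofactor, rose in 293T by 0.45 on the log2 scale (adjusted p = 1.65e-04).

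Of 28 tested transcription factors known to induce the members, 10 rose and 8 fell in A549 and 10 rose and 10 fell in 293T (medians -0.03 and -0.08). The shares were 35.7% higher and 28.6% lower in A549, where all tested genes had 13.3% and 26.9%, and 35.7% each way in 293T, where they had 13.7% and 24.2%. JUN, a subunit of AP-1, went from 25.0 ± 0.129 to 54.8 ± 18.9 FPKM in A549 (log2 change 1.05, adjusted p = 7.68e-04) and from 59.1 ± 0.965 to 271 ± 54.4 FPKM in 293T (log2 change 2.16, adjusted p = 2.19e-05). NFE2L2, the oxidative stress factor, rose by 0.41 in A549 and 0.72 in 293T. DDIT3, a factor of the integrated stress response whose span overlaps MARS1, rose by 0.99 and 1.20. IRF1, an interferon-responsive factor, went from 14.6 ± 0.366 to 10.5 ± 0.345 FPKM in A549 (log2 change -0.44, adjusted p = 4.14e-05).

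Of 27 tested feedback genes of growth factor and cytokine signalling, 9 rose and 5 fell in A549 and 9 rose and 4 fell in 293T (medians 0.05 and 0.06). These were 33.3% and 18.5% in A549 and 33.3% and 14.8% in 293T, beside 13.3% and 26.9%, and 13.7% and 24.2%, of all tested genes. ERRFI1, an inhibitor of EGFR, went from 15.6 ± 0.239 to 32.0 ± 3.08 FPKM in A549 (log2 change 0.98, adjusted p = 6.63e-07) and rose by 0.31 in 293T. DUSP5, a nuclear ERK phosphatase, went from 11.4 ± 0.159 to 25.6 ± 4.84 FPKM in A549 (log2 change 1.08, adjusted p = 6.30e-06). The ERK pathway inhibitors SPRY4 and DUSP6 rose in A549 by 0.56 and 0.51. Neither was called in 293T, where both were at most 0.161 FPKM on average.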

How the data were processed

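Poly(A)-selected RNA of 12 libraries was analysed, 3 for each of exposed and control A549 and 293T. The submitters' processing notes name fastp, HISAT2, HTSeq and GRCh38, with no versions or settings. The authors deposited FPKM values, and only these were used. Their ratios were those of whole counts for 100% of 26348 genes within 0.01 counts, so depth and 1 alternative used recovered counts.

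For 13811 genes with at least 0.5 FPKM in at least 3 libraries, log2(FPKM + 1) was modelled with limma 3.58.1 under R 4.3.3, with 1 mean per group, an intensity trend and 8 residual degrees of freedom. A log2 change on this scale understates the change of low genes. Tests were two-sided, and every adjusted p is Benjamini-Hochberg over all tested genes with a threshold of 0.05, from this fit unless another is named. Ratios are of mean FPKM. Members called in a field contrast or in its difference between lines, or highest or lowest in their role, are given by library. From each list of other pathway genes the called genes with the smallest adjusted p, 2 to 4 a list, are named, and ADAM17 was added after its values were seen. The members and lists were chosen with earlier results of these data known. Coordinates and sequences are RefSeq, GRCh38.p14, read with pandas 2.3.3. Same-numbered libraries did not deviate together (correlations -0.243 to 0.0239). Alternatives were another pseudocount, filter, scaling, variance or count test, each line alone, a replicate block and leaving out each library, and, chosen after seeing the data, leaving out replicate 3 of both exposed groups.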

Additional observations from a re-analysis of the deposited data

Results flagged for a closer look

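In 11 secreted factors the field effect differed between the lines by the test of that difference (A549 minus 293T, log2(FPKM + 1), limma, Benjamini-Hochberg adjusted p below 0.05). The difference was 1.20 for CCL26, 1.15 for EDN1, 0.75 for NRG1, 0.56 for FGF2, 0.53 for CSF1, 0.32 for AREG, 0.31 for ADM, 0.30 for IL11, -0.30 for VEGFA, -0.33 for TNFSF10 and -0.42 for CXCL2. FGF2 was called in opposite directions in the 2 lines, CSF1 fell in 293T and was not called in A549 (adjusted p = 0.05004), and VEGFA was higher in both and more so in 293T. CCL26, EDN1, NRG1, AREG, IL11, CXCL2 and TNFSF10 were below 0.5 FPKM in all 293T libraries. On this scale their difference mostly restates the change in A549. With limma-voom on recovered counts only CSF1, FGF2 and VEGFA kept a called difference. The differences of AREG, VEGFA, CXCL2, ADM and TNFSF10 ended in 7 to 10 of 12 fits with 1 library removed.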

How the results depend on the processing

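The counts in A549 were 13 higher and 5 lower. They became 8 higher with a pseudocount of 0.1, and 3 lower with a mean FPKM of at least 1, with median centring or with the replicate block. That mean filter left 34 members tested. It removed TNFSF10, CSF2 and TSLP, whose calls were thus not tested there. With each line fitted alone the A549 counts were 10 higher and 4 lower. Leaving out 1 library gave 10 to 13 higher and 3 to 5 lower. In 293T, 4 higher and 5 lower became 3 to 5 and 5 with 1 library left out, and 4 lower with limma-voom or with a mean FPKM of at least 1. For the difference between the lines, 8 higher and 3 lower became 4 and 1 with a pseudocount of 0.1, 2 and 1 with limma-voom on recovered counts, and 1 lower with no filter. Leaving out 1 library gave 6 to 8 higher and 0 to 3 lower. The 0 was reached without control replicate 1 or 2 of 293T and without control replicate 1 or 3 of A549. The control comparison stayed at 31 higher and 5 to 7 lower in those fits. Apart from the members removed by the mean filter, the causes of these shifts were not tested.

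The replicate numbers pair nothing by the labels. With the number as a block the calls were 12 and 3 in A549, 4 and 5 in 293T, 7 and 2 for the difference, and 31 and 7 for the controls. No sign of a called member change reversed in any setting. Members with few counts, such as TNFSF10, CSF2 and TSLP in A549, are limited by depth.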
